A study of Mus musculus with 4 samples.

Results

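The 10 genes described here mark the oligodendrocyte lineage from its dividing precursor to the cell that has committed to making myelin. They were taken by name from a list of Pdgfra, Cspg4, Olig1, Olig2, Sox10, Sox8, Nkx2-2, Gpr17, Bcas1 and Myrf, and all 10 were found by identifier among the 55421 genes of the count files. The list holds 4 precursor genes (Pdgfra, Cspg4, Olig1 and Olig2), 3 further lineage transcription factors (Sox10, Sox8 and Nkx2-2) and 3 genes of the committed stage (Gpr17, Bcas1 and Myrf). Wild-type C57BL/6 mice at postnatal day 0 gave the PFC (prefrontal cortex) tissue, which was dissociated and grown for 10 days in neurobasal medium with B27. One group of cultures received FGF2 (fibroblast growth factor 2) at 5 ng/mL and the other, no FGF2, received none. Each group comprised 2 libraries of total RNA, numbered 1 and 2. The study's methods call the replicates technical for all samples outside a pair of human stages. They do not speak of the mouse cultures by name, so n counts libraries. The p-values, standard errors and intervals measure only the spread between these libraries, which may be technical. The fit shares this spread in part over genes, so they do not rest on a gene's own libraries alone.

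Oligodendrocytes arise from precursor cells that divide in response to platelet-derived growth factor and then leave the cycle in a commitment step, before they wrap axons in myelin. The bHLH proteins OLIG1 and OLIG2 and the SoxE proteins SOX8 and SOX10 are present through most of this path, and the precursor's surface carries the receptor PDGFRA and the proteoglycan NG2. At commitment the receptor GPR17 and the protein BCAS1 appear, and the transcription factor MYRF switches on myelin genes. FGF2 is a well known mitogen of the precursors in culture.

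The libraries held between 9166432 and 10799886 counts on genes, and 3 counts, the limit that a count of 0 allows, came to between 0.278 and 0.327 CPM of these raw totals, for counting error only. All other CPM values are counts scaled to TMM-adjusted library totals. The lowest count of any of the 10 genes in a library was 58, for Nkx2-2. The cultures were mixed. The astrocyte marker Gfap had 5793 ± 215 CPM with FGF2 and 2776 ± 7.78 without (SD, n = 2), and the neuronal marker Tubb3 had 216 ± 3.48 and 462 ± 9.20. The neural crest gene Foxd3 had 0 counts in all 4 libraries. In bulk RNA, more cells of a type and more RNA per cell cannot be told apart.

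Because SOX8 and SOX10, and likewise OLIG1 and OLIG2, are close relatives, reads of a pair could in principle be exchanged. The most alike stretches of 60 coding bases are therefore shown, from the GENCODE M21 transcripts, with the bases that differ within a pair in capitals. They are bases 279 to 338 of the coding sequence of Sox8, 294 to 353 of Sox10, 272 to 331 of Olig1 and 314 to 373 of Olig2, counted from 1 at the start codon.
Sox8: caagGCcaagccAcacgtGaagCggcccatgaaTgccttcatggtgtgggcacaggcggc
Sox10: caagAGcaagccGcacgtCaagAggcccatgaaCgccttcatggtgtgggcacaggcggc
Olig1: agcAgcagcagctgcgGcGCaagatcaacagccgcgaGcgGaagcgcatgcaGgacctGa
Olig2: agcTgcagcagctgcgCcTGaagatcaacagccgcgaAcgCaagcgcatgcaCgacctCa
The Sox pair shared 54 of 60 bases (90.0%) with a longest exact run of 26 bases, and the Olig pair shared 52 of 60 (86.7%) with a longest run of 17. With paired reads of 150 bases, even the best-matched part of these genes held differences within a read. On its own strand, 0 of the 10 genes had a copy elsewhere that matched it over 100 bases or more at 95% identity or better.

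Promoter sequence was at hand for 5 of the 10 genes (Pdgfra, Cspg4, Olig2, Sox8 and Nkx2-2). The 250 bases before the RefSeq start (GRCm38.p6) were searched. For the 3 transcription factor genes among the 5, the part before the nearest annotated exon on their strand is shown. Capitals mark E-boxes, matches to CANNTG on either strand, the general form of site that bHLH proteins bind. The stretches lie at chr16:91225300-91225456 on the plus strand for Olig2, chr17:25570687-25570936 on the minus strand for Sox8 and chr2:147186456-147186652 on the minus strand for Nkx2-2. The Nkx2-2 stretch lies inside the annotated span of its gene (147177546 to 147194243). It precedes a RefSeq start, but for longer annotated transcripts it is not upstream of the gene.
Olig2: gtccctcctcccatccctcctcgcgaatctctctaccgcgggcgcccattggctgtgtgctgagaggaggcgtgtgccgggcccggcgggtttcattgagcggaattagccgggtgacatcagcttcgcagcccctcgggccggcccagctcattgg
Sox8: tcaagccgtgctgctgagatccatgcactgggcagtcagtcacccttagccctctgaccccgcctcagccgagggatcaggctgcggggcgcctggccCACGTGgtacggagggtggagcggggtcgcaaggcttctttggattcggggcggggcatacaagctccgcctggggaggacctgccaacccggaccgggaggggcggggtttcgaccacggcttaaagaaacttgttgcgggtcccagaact
Nkx2-2: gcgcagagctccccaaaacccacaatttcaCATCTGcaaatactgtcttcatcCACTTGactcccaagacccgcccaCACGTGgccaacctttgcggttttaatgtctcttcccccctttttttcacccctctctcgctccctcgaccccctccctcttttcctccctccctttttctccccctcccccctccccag
Over the full 250 bases Olig2 held 0 E-boxes, Sox8 1 and Nkx2-2 3, while 66.2% of 32851 promoters of the same length held at least 1. The stretches of Pdgfra and Cspg4 held 1 and 0. The E-box form CAGCTG occurred in 0 of the 5 promoters and in 13.0% of all. The SOX letters ACAATG occurred once among the 5 promoters, in Olig2 downstream of the part shown, and in 10.7% of all promoters. ACAAAG occurred in 0 of the 5 and in 16.5% of all. The G+C content was 66.8% for Olig2, 65.6% for Sox8 and 56.4% for Nkx2-2, against a median of 52.4% over all promoters. These matches are letters only, and with 5 promoters no relation to the changes was sought.

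All 10 genes were higher with FGF2 at an adjusted p-value threshold of 0.05, and 0 were lower (quasi-likelihood test in edgeR, Benjamini-Hochberg adjustment over all 17144 tested genes). Of all tested genes 20.7% were higher and 19.9% lower, 40.5% in all. Each of the 10 passed the filter on low counts, with at least 58 counts in every library. For each of them both libraries with FGF2 lay above both libraries without, as in 33.6% of the tested genes, and for 0 below, as in 33.4%. The median log2 fold change was 1.95 over the 10 genes and -0.00082 over all tested genes. The changes were far from equal, from 1.30-fold for Olig1 to 9.97-fold for Myrf. The median was 0.65 for the precursor genes, 2.34 for the transcription factors and 2.92 for the committed genes on the log2 scale. A log2 fold change above 1 together with the adjusted threshold was found in 5.22% of the tested genes and in 7 of the 10, that is in all but Pdgfra, Cspg4 and Olig1. A log2 fold change above 2 was found in 1.53% of the tested genes and in 5 of the 10, namely Sox10, Nkx2-2, Gpr17, Bcas1 and Myrf. The 10 genes were chosen with earlier results of these data known. Their counts beside the shares of all tested genes are therefore a description and not a test.

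**Figure D1:**
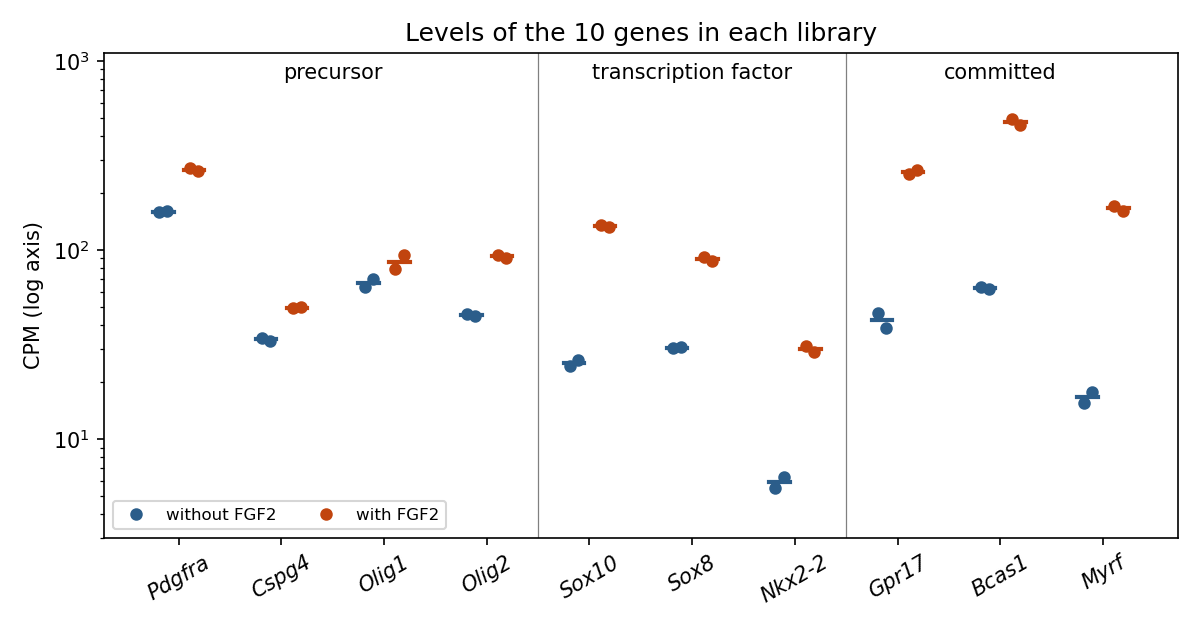
CPM (log axis) of each of the 10 genes in each library, 2 libraries with FGF2 and 2 without, with short lines at the group means. The groups are apart for every gene, narrowly for Olig1 (63.6 and 70.1 against 79.3 and 93.6 CPM) and widely for Myrf (15.5 and 17.7 against 171 and 161 CPM).

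Among the precursor genes, Pdgfra, the receptor for platelet-derived growth factor A that drives precursor division, had 271 and 260 CPM in replicates 1 and 2 with FGF2 and 158 and 161 CPM without. It lies on chromosome 5 of mm10 from 75152292 to 75198215. The libraries of a group differed by a few percent and the groups were well apart. Pdgfra rose 1.67-fold (log2 fold change 0.74, standard error 0.05, edgeR adjusted p = 5.3e-50). Cspg4 encodes the NG2 proteoglycan of the precursor surface and lies on chromosome 9 from 56865033 to 56899870. It had 49.0 and 49.9 CPM with FGF2 and 34.2 and 33.1 CPM without. The groups did not overlap, and Cspg4 rose 1.47-fold (log2 0.56, standard error 0.10, edgeR adjusted p = 8.5e-08).

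Olig2, which encodes the bHLH factor required to form the lineage, had 94.3 and 90.9 CPM with FGF2 and 45.7 and 44.5 CPM without. It rose 2.05-fold (log2 1.04, standard error 0.08, edgeR adjusted p = 2.6e-37), the most of the 4 precursor genes. Olig1, its neighbour and close relative, showed the smallest change of all 10 genes. Olig1 had 79.3 and 93.6 CPM with FGF2 and 63.6 and 70.1 CPM without, so the libraries with FGF2 lay further from each other than the nearer of them lay from the higher library without FGF2. Its rise of 1.30-fold (log2 0.37, standard error 0.07, edgeR adjusted p = 3.3e-06) depended in size on 1 library, and with replicate 2 of the FGF2 group left out the log2 fold change was 0.24 (edgeR adjusted p = 0.021).

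Olig2 and Olig1 lie on chromosome 16 on the same strand, from 91225457 to 91228677 and from 91269772 to 91271933, with 41094 bases between them. The 95% intervals of their log2 fold changes were 0.88 to 1.19 for Olig2 and 0.23 to 0.52 for Olig1. The ratio of Olig1 to Olig2, in CPM per kb of exon, was 0.984 and 1.21 with FGF2 and 1.63 and 1.84 without. The balance of the neighbouring genes thus moved towards Olig2 in both libraries with FGF2. The gene Gm15966 overlaps Olig1 on the opposite strand by 157 bases and had at most 3 counts in a library.

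Sox10, the SoxE factor that acts with OLIG2 and MYRF on lineage genes, had 135 and 132 CPM with FGF2 and 24.2 and 26.2 CPM without. It lies on chromosome 15 from 79154908 to 79165240. The gap between the groups was many times the spread within them, and Sox10 rose 5.31-fold (log2 2.41, standard error 0.08, edgeR adjusted p = 3.2e-185). Sox8, the related SoxE factor, lies on chromosome 17 from 25565892 to 25570686. It had 91.6 and 87.3 CPM with FGF2 and 30.2 and 30.5 CPM without, and rose 2.95-fold (log2 1.56, standard error 0.09, edgeR adjusted p = 4.5e-70). The 95% intervals of the related genes did not meet, with 2.25 to 2.57 for Sox10 and 1.39 to 1.73 for Sox8. In CPM per kb, Sox8 stood above Sox10 without FGF2 (ratio 1.22 and 1.14) and below it with FGF2 (0.662 and 0.645).

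Nkx2-2 encodes a homeodomain factor that precedes differentiation of the precursor and lies on chromosome 2 from 147177546 to 147194243. It had 31.1 and 29.0 CPM with FGF2 and 5.52 and 6.28 CPM without, from 58 and 68 counts in the latter. It was the least abundant of the 10 genes in CPM in both groups, and it rose 5.07-fold (log2 2.34, standard error 0.16, edgeR adjusted p = 2e-46). The wider 95% interval of 2.03 to 2.66 contains the value of Sox10. Of its antisense genes, Nkx2-2os had 15 and 15 counts against 5 and 2 without FGF2, and 6430503K07Rik had 10 and 11 against 0 and 2.

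The 3 genes of the committed stage changed most. Gpr17, a receptor that is switched on at commitment and off again before myelination, had 251 and 264 CPM with FGF2 and 46.1 and 38.7 CPM without. It lies on chromosome 18 from 31942997 to 31949636 and rose 6.08-fold (log2 2.60, standard error 0.06). Bcas1, which marks newly formed and early myelinating oligodendrocytes, had 493 and 458 CPM with FGF2 and 63.6 and 61.9 CPM without. It lies on chromosome 2 from 170346991 to 170427845 and rose 7.57-fold (log2 2.92, standard error 0.05). With FGF2 it was the most abundant of the 10 genes, in CPM and in CPM per kb.

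Myrf, which encodes the membrane-bound factor that turns on the myelin programme, lies on chromosome 19 from 10208272 to 10240748. It had 171 and 161 CPM with FGF2 and 15.5 and 17.7 CPM without. The groups were furthest apart of the 10 genes, and Myrf rose 9.97-fold (95% interval 8.90 to 11.2; log2 3.32, standard error 0.08). The adjusted p-values of Gpr17, Bcas1 and Myrf were too small for edgeR to write as a number. With DESeq2 the adjusted p-value of Myrf was 1e-160 and that of Gpr17 was 3.1e-169. The 95% intervals of the committed genes did not meet, at log2 fold changes of 2.48 to 2.73 for Gpr17, 2.82 to 3.02 for Bcas1 and 3.15 to 3.48 for Myrf. The ratio of Myrf to Gpr17 in CPM per kb was 0.415 and 0.370 with FGF2 and 0.204 and 0.278 without.

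**Figure D2:**
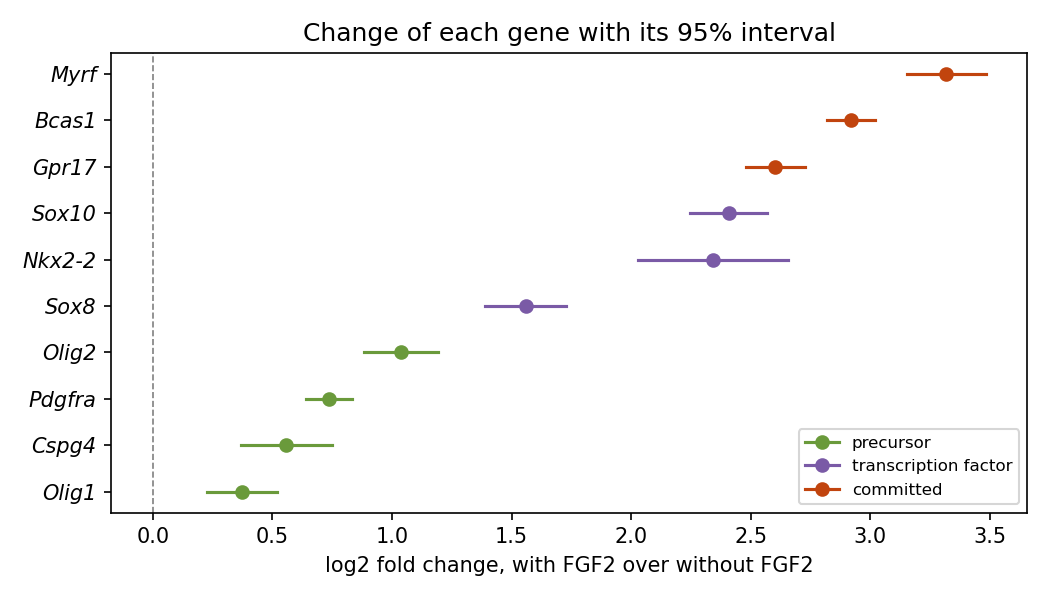
Log2 fold change (FGF2 over no FGF2) of the 10 genes with the 95% interval from edgeR, in order of size and coloured by stage. The 4 precursor genes lie between 0.37 and 1.04, the 3 transcription factors between 1.56 and 2.41 and the 3 committed genes between 2.60 and 3.32, and these ranges do not overlap.

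Levels of different genes were compared per kb of exon, with the exons of all annotated transcripts of a gene merged. This length was 10024 bases from 9 transcripts for Pdgfra and 2162 bases from 1 for Olig1. Which transcripts were present was not measured. Close places in the order, and shares of summed levels, depend on this length, which the SD between libraries does not cover. Without FGF2 the order was led by Olig1 (30.9 ± 2.14 CPM per kb, SD, n = 2) and Olig2 (17.8 ± 0.33), followed by Bcas1 (16.6 ± 0.32) and Pdgfra (15.9 ± 0.19). Sox8 (9.73 ± 0.070), Sox10 (8.26 ± 0.48) and Gpr17 (8.16 ± 1.00) came next, of which Sox10 and Gpr17 overlapped between libraries. Cspg4 (2.82 ± 0.065), Nkx2-2 (2.05 ± 0.19) and Myrf (1.94 ± 0.18) closed the order, and the last pair also overlapped. Precursor genes thus held 3 of the first 4 places without FGF2. With FGF2 the first places went to Bcas1 (126 ± 6.55 CPM per kb), Gpr17 (49.5 ± 1.83) and Sox10 (43.9 ± 0.66). Olig1 (40.0 ± 4.67) and Olig2 (36.6 ± 0.96) followed and overlapped between libraries. Sox8 (28.7 ± 0.96), Pdgfra (26.5 ± 0.76), Myrf (19.4 ± 0.85), Nkx2-2 (10.4 ± 0.52) and Cspg4 (4.15 ± 0.052) came after them, with no overlap between neighbours.

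**Figure D3:**
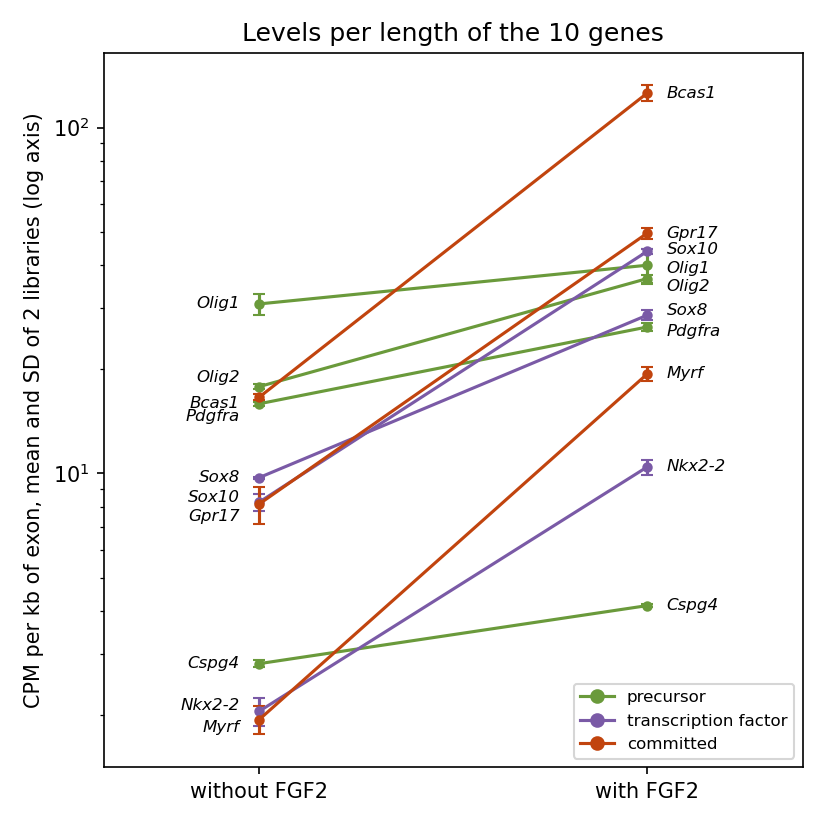
CPM per kb of exon (log axis) of the 10 genes without and with FGF2, as the mean and SD of 2 libraries, coloured by stage. Lines of the committed genes cross those of the precursor genes, with Bcas1 moving from 16.6 to 126 and Olig1 from 30.9 to 40.0 CPM per kb.

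The stages were also set against each other within each library, as the mean log2 CPM of the committed genes minus that of the precursor genes. This difference was 1.47 and 1.39 with FGF2 and -0.82 and -0.87 without, so it was 2.27 higher with FGF2 on the log2 scale. It is a description of the chosen genes and was not tested. Per kb of exon the mean log2 level of the precursor genes was 4.32 ± 0.027 with FGF2 and 3.65 ± 0.014 without (SD, n = 2), that of the transcription factors 4.56 ± 0.047 and 2.47 ± 0.074, and that of the committed genes 5.63 ± 0.028 and 2.68 ± 0.023. Since Pdgfra and Cspg4 are also genes of fibroblasts and mural cells, Olig1 and Olig2 were also taken alone as precursor genes. The difference between groups was then 2.24. Olig1 and Olig2 are present through most of the lineage, so this measure is less specific to the precursor stage. With all precursor genes and the median in place of the mean, the difference was 1.90. Of the summed CPM per kb of the 10 genes, the precursor genes made up 27.1% and 28.7% with FGF2 and 58.4% and 59.7% without. The committed genes made up 51.2% and 50.0% with FGF2 and 24.3% and 22.5% without, and the transcription factors between 17.3% and 21.8% in every library.

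**Figure D4:**
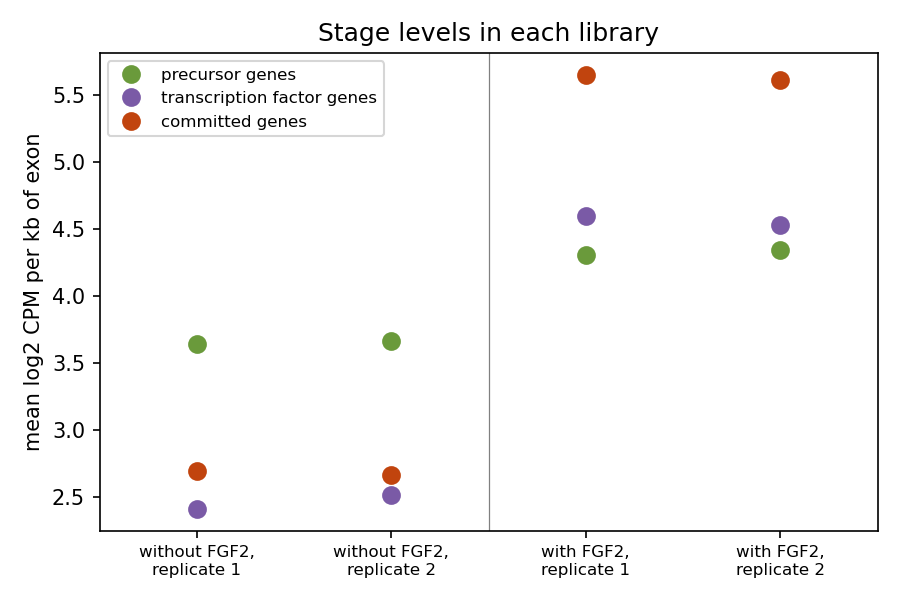
Mean log2 CPM per kb of exon of the precursor, transcription factor and committed genes in each of the 4 libraries. Without FGF2 the precursor genes are on top (3.64 and 3.66) and with FGF2 the committed genes are (5.65 and 5.61).

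Other genes of the lineage were read from lists beside the 10 genes, also chosen with earlier results of these data known. These lists share some genes. Sox6 is counted under precursors and inhibitors, Bmp4 under committed cells and ligands, and Sox9 under partner factors and astrocytes. Of 12 further precursor genes 11 were tested, and 9 were higher, 1 was lower and 1 did not pass, with a median log2 fold change of 0.72. Snx22 rose by 2.15 and C1ql1, a secreted synaptic organizer made by precursors, by 1.43 on the log2 scale. Cacng4, an auxiliary subunit of AMPA receptors that neurons share, fell by 0.57 (edgeR adjusted p = 1.9e-18). Of 10 further genes of committed and newly formed cells, 9 were higher and 1 was lower, with a median of 1.73. Bmp4, a secreted morphogen that committed precursors express, rose by 3.07 and Enpp6, a choline phosphodiesterase of newly formed oligodendrocytes, by 3.02. Enpp6 had 162 ± 7.92 CPM with FGF2 and 19.8 ± 3.29 without (SD, n = 2). Rras2, a small GTPase, was the exception and fell by 0.38 (edgeR adjusted p = 0.0044), a call that ended with DESeq2 (adjusted p = 0.13) and without replicate 1 of the group without FGF2 (log2 fold change -0.24, edgeR adjusted p = 0.23).

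The myelin genes had a median of 2.58, with 9 of 11 tested genes higher, 0 lower and 2 not passing. Cldn11, the tight junction protein of myelin, rose by 3.38 on the log2 scale. Not every gene of the list was well counted. Mog had 4 and 2 counts against 1 and 2 without FGF2, and Opalin, which was called higher (edgeR adjusted p = 0.00012), had 11 and 16 against 1 and 1. Aspa and Ermn had at most 7 counts in a library. Mal was tested and did not pass, at -0.08 on the log2 scale (edgeR adjusted p = 0.92). These 5 genes were picked after their values were seen.

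Of 12 ligands and growth factors that act on the lineage, 4 were higher, 4 were lower and 4 did not pass, with a median of 0.22. Pdgfa, the ligand of PDGFRA, did not pass, with 28.0 ± 2.37 CPM with FGF2 and 23.3 ± 2.15 without (SD, n = 2; log2 fold change 0.27, edgeR adjusted p = 0.064). Cxcl1, a chemokine that acts on precursor migration and division, rose by 7.01, from 2 and 6 counts without FGF2 to 475 and 469 with it. Its rise was 6.46 when replicate 1 without FGF2 was left out and 7.94 when replicate 2 without FGF2 was. Igf1, which promotes survival and myelination, fell by 0.80, and Wnt7b, a Wnt ligand, fell by 0.64. Among 8 inhibitors of differentiation, 2 were higher, 3 were lower and 3 did not pass, with a median of -0.28. Sox6, a factor that holds precursors in their state, rose by 0.94 and Gpr37, a receptor that restrains late differentiation, by 0.82. Lingo1, a surface inhibitor of differentiation, fell by 0.67, and Id2, an HLH protein that sequesters bHLH partners, fell by 0.30. The Id2 call ended with DESeq2 (adjusted p = 0.079), which left 1 of the 3 lower calls. Of 11 tested partner and related transcription factors 8 were higher and 3 lower, with a median of 0.27. In this list, with the genes at 5 CPM or more, the highest were Chd7, a chromatin remodeller that works with SOX10, at 0.74 and Sox9 at 0.42, and the lowest were Hdac2 at -0.29 and Sox11 at -0.25.

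Precursors are dividing cells, so proliferation genes were also read, over all cells of the cultures and not over the lineage. Of 10 such genes 9 were lower, 0 were higher and 1, Mki67, did not pass (log2 fold change -0.10, edgeR adjusted p = 0.33). The median was -0.60, and Aurkb fell by 1.28 and Bub1 fell by 0.84. The Bub1 call ended without replicate 2 with FGF2 (edgeR adjusted p = 0.082), without replicate 1 without FGF2 (0.16) and with DESeq2 (0.13). With DESeq2 only 5 of the 10 were lower. Division of the precursors themselves was not measured.

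**Figure D5:**
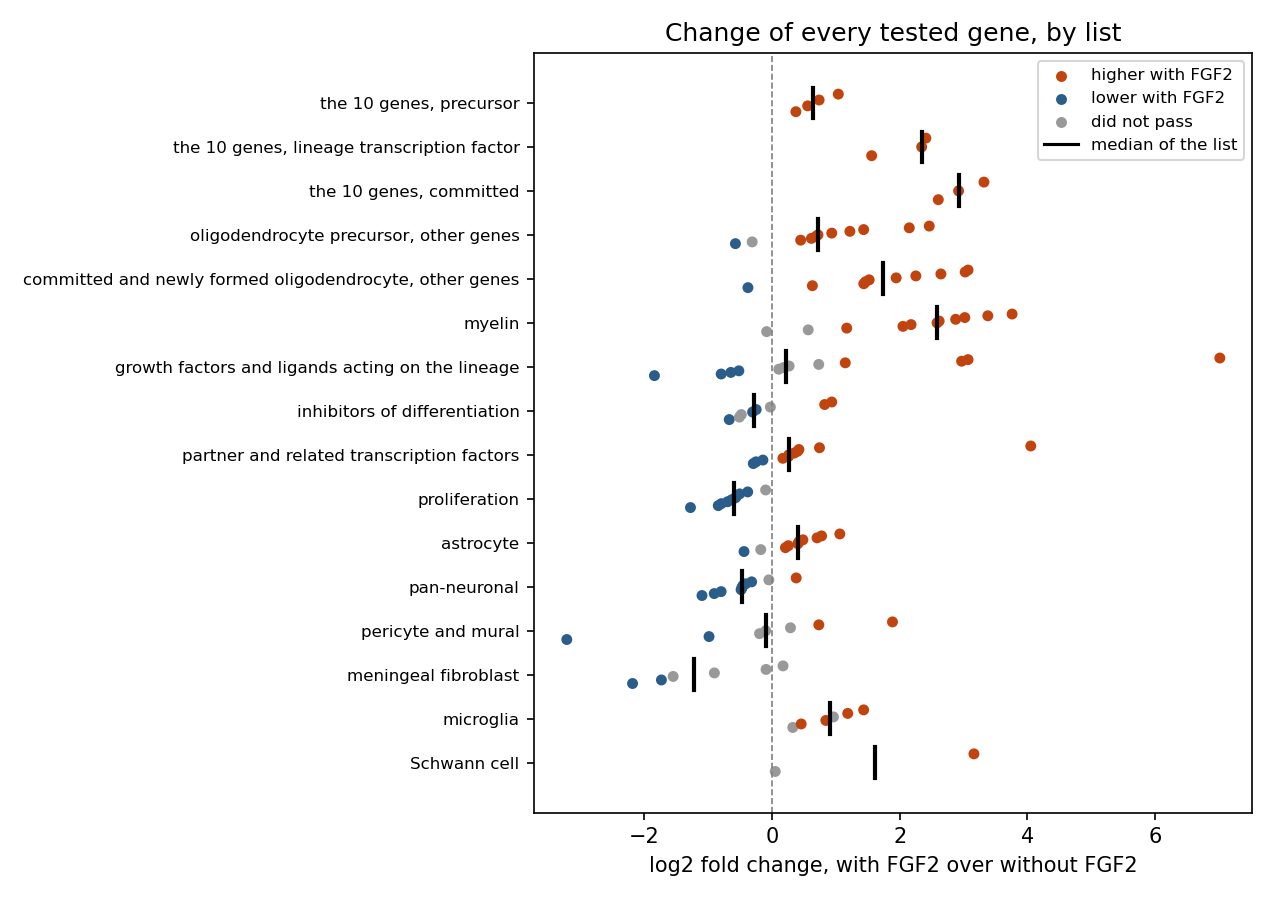
Log2 fold change (FGF2 over no FGF2) of every tested gene of the 10 genes by stage and of the other lists, coloured by the edgeR call, with a black line at the median of each list. The committed, myelin and transcription factor groups of the lineage lie furthest to the right (medians 2.92, 2.58 and 2.34). The proliferation, neuronal, fibroblast, inhibitor and mural lists have medians left of 0 (-0.60, -0.46, -1.23, -0.28 and -0.10).

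Genes of other cell types moved as well, and their part in the changes of the 10 genes was not tested. Of 10 astrocyte genes 8 were higher, 1 was lower and 1 did not pass, with a median of 0.41, and their summed level was between 12628 and 12753 CPM with FGF2 and between 7742 and 7793 CPM without. Gfap rose by 1.06 and Aqp4 by 0.78, while Fgfr3 fell by 0.44. The log2 fold changes of all 4 precursor genes lay within the range of the astrocyte genes (-0.44 to 1.06) and those of the other 6 genes above it, and astrocytes or their progenitors can also express Olig2 and Sox8. Of 10 neuronal genes 8 were lower (Tubb3 fell by 1.10 and Rbfox3 fell by 0.90), 1, Nefl, was higher by 0.38 and 1 did not pass, with summed levels of 3542 to 3682 CPM with FGF2 and 5175 to 5202 CPM without. The Nefl call ended with DESeq2 (adjusted p = 0.076) and without replicate 2 without FGF2 (edgeR adjusted p = 0.060).

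Pdgfra is also a gene of fibroblasts and Cspg4 of pericytes. The 8 fibroblast genes summed to 8.34 to 11.2 CPM with FGF2 and 21.4 to 24.2 CPM without. Of 6 tested genes 2 were lower, 0 were higher and 4 did not pass. Col1a1, the most lowered of them, had 1.79 ± 0.35 CPM with FGF2 and 8.21 ± 0.77 without (SD, n = 2). Dcn (-0.09 on the log2 scale) and Foxc1 (0.17) did not pass. Of 7 tested pericyte and mural genes 2 were higher, 2 were lower and 3 did not pass. With DESeq2, with at least 10 counts in every library, without replicate 2 with FGF2 or without replicate 1 without FGF2, 1 was lower. Pdgfrb, the receptor that defines pericytes, had 47.9 ± 1.83 CPM with FGF2 and 28.8 ± 0.19 without and rose by 0.73 on the log2 scale, beside 0.56 for Cspg4, while Kcnj8 and Abcc9 had at most 3 counts in a library and Higd1b had 0 in all. Of 6 tested microglial genes 4 were higher and 0 were lower, at summed levels of 25.0 to 42.2 CPM, and Csf1r rose by 1.43. With DESeq2 1 of them was higher, and 2 were without replicate 2 with FGF2 or without replicate 2 without FGF2. Of 6 Schwann cell genes only Prx and Egr2 were tested, and Egr2, which many cells also induce on stimulation, rose by 3.16 while Prx did not pass.

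Genes that overlap the 10 genes on the opposite strand were read separately. The counting kept the strands apart, as genes with at least 98% of their exon length under other genes show. Where the covering gene was on the same strand, 8 of 844 were counted at all, and where it was on the opposite strand 166 of 486 were. The antisense gene 2810468N07Rik shares 329 exonic bases with Sox8 and had 152 and 178 counts against 55 and 76 without FGF2. It rose by 1.50 on the log2 scale (standard error 0.18, edgeR adjusted p = 4.8e-15), beside 1.56 for Sox8. Lims2, which encodes a focal adhesion protein, shares 188 exonic bases with Gpr17 and rose by 1.67 (133 and 132 counts against 51 and 43), beside 2.60 for Gpr17. The genes overlapping Bcas1 and Pdgfra had at most 6 counts in a library.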

How the data were processed

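RNA of 4 mouse libraries (2 per group, grouped by title) was analysed. The authors mapped clean reads to mm10 with Hisat2 (2.1.0 in the submitters' processing notes), kept mapping qualities of at least 20 and deposited raw counts per gene from HTSeq (0.11.2 in the notes), without normalization. The annotation release is not given in the sources used here. Identifiers were matched to GENCODE M21 (55240 of 55421), and 5 tally lines, with 43.2% to 45.9% of read pairs in no feature and 1.47% to 1.76% ambiguous, were left out.

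Counts were tested with edgeR 4.0.16 (R 4.3.3; TMM, expression filter, robust quasi-likelihood fit, Benjamini-Hochberg over 17144 genes). Standard errors are the log2 fold change over the root of the F statistic. CPM use TMM-adjusted totals, CPM per kb the merged exon length, and stage means a prior count of 1. As alternatives, the scaling was by RLE, by upper quartile or by totals alone, and the other settings were no filter, at least 10 counts in every library, DESeq2 1.42.0, limma-voom (3.58.1), the replicate number as a block, and each library left out. Copies were sought with BLAST 2.17.0. Simulated data served to test the fits. Between replicates of a group, chi-square over its degrees of freedom was 2.28 (FGF2) and 1.76 (no FGF2), above sampling noise, and each library was kept.

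The 10 genes and the lists were chosen with earlier results of these data known. Named genes are the 10 genes, the 2 highest and 2 lowest called genes of each list at 5 CPM or more, genes overlapping the 10 genes and the markers Rbfox3, Tubb3, Gfap, Aqp4, Csf1r, Pdgfrb and Col1a1. Some genes that this rule takes are left out of the text. Other genes named from the lists were chosen after their values were seen.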

Additional observations from a re-analysis of the deposited data

How the results depend on the processing

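The 10 genes stayed higher with FGF2 at the adjusted threshold in all 12 alternatives, including each library left out. Over the alternatives other than the block and a left-out library, the largest adjusted p-values were 0.01 for Olig1 and 0.00096 for Cspg4, both with DESeq2. With a library left out, Myrf ranged from 3.22 to 3.41 and Olig1 from 0.24 to 0.48 on the log2 scale. With DESeq2, 2068 genes were higher and 1939 lower in place of 3541 and 3408, and 11821 genes had no adjusted p-value. With a library left out 2642 to 3145 genes were higher and 2558 to 3054 lower. The difference of committed and precursor levels was 1.90 with the median over the genes of a stage, and 2.23 to 2.31 with a library left out. Its value per kb of exon, an alternative chosen after seeing the data, is 2.27 by construction. The replicate numbers are not stated to pair the libraries, and the deviations of the first libraries of the groups were uncorrelated (1.3e-05 over genes). With the replicate number as a block, 10 of the 10 genes stayed higher (Olig1 0.37, edgeR adjusted p = 8.8e-06), and 54 and 34 genes of the other lists were higher and lower, as without it. Of 47 named genes with a test, 40 kept their side of the threshold in every alternative that gave a value, and the others, among them Rras2, Id2, Bub1, Nefl, Nkx2-2os and 6430503K07Rik, changed side but not sign. Small lists moved in their counts with DESeq2 (lower: growth factors 2 in place of 4, inhibitors 1 in place of 3, proliferation 5 in place of 9, mural 1 in place of 2; higher: microglia 1 in place of 4), and the mural and microglial counts also moved with single libraries left out. At these depths, genes with very low counts such as Mog could not be compared.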

Other observations

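Further genes of the lineage lists, chosen after their values were seen, also rose with FGF2. Among genes of committed and newly formed cells, Zfp488, a zinc finger protein of differentiating oligodendrocytes, rose by 2.64 on the log2 scale, from 8.95 ± 0.41 to 56.1 ± 1.77 CPM (SD, n = 2). Itpr2, an intracellular calcium channel, rose by 2.25 (60.3 ± 0.048 to 287 ± 5.51 CPM). Sirt2, a deacetylase of the myelin sheath, rose by 1.52, and Tcf7l2, a transcription factor of the Wnt pathway, by 1.44. The kinase gene Fyn, which many cell types express, rose by 0.63. Among precursor genes, Lhfpl3 rose by 1.22. Of the ligands, Fgf2 itself rose by 2.97, from 7.50 ± 0.11 to 58.8 ± 1.14 CPM, and Nrg1, the axonal ligand of ErbB receptors, by 1.15.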
